A study of Mus musculus with 4 samples.

Results

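The genes described here encode the enzymes that attach the ubiquitin-like protein ISG15 to other proteins and take it off again. They were chosen by name, with earlier results of these data known. They are Isg15 (the modifier), Uba7 (its E1 activating enzyme), Ube2l6 (its E2 conjugating enzyme), Herc6 and Trim25 (E3 ligases) and Usp18 (the protease). All 6 were among the 22063 genes listed in the deposited table, and all 6 had enough counts to be tested, as did 11448 genes in all. Total RNA came from ID8, a mouse ovarian cancer cell line, infected with lentiviral short hairpin RNA (shRNA) vectors. One group carried a control shRNA (shCtrl, genotype labelled WT) and the other shRNA against USP9X (shUSP9X, labelled as knockdown), with 2 libraries in each. The sources do not state which USP9X hairpin was used, or whether it was the same in both shUSP9X libraries. Nor do they state whether the libraries of a group came from separate cultures, or whether TGF-β1 was added. The p-values therefore measure the spread between these libraries, which may be technical. The libraries held 17232006 and 15611363 estimated counts in shCtrl and 19978889 and 17021261 in shUSP9X.

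ISG15 is made as a precursor and joined through its carboxyl end to lysines of target proteins, a process called ISGylation. As with ubiquitin, an E1 enzyme activates the modifier, an E2 carries it and an E3 ligase helps to place it. Transcription of these genes is a well-known part of the response to type I interferon, in which the factor ISGF3, a complex that includes STAT2 and IRF9, binds a promoter element called the ISRE. USP18 removes ISG15 from its targets. It also binds the receptor chain IFNAR2 and damps interferon signaling, which makes it a feedback inhibitor as well as a protease.

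The shRNA target, Usp9x, had 5169 and 4453 counts in the shCtrl libraries and 390 and 346 in the shUSP9X libraries. Both knocked-down libraries therefore lay far below both controls, as their labels state. Its fitted change was -3.85 on the log2 scale (standard error 0.06, adjusted p = 4.7e-26 in edgeR's quasi-likelihood test, the test used throughout, with Benjamini-Hochberg adjustment over all genes tested). With the trend on GC content and length taken out of each library it was -2.76, a smaller knockdown that was still called.

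All 6 ISG15 genes were higher in the shUSP9X libraries (adjusted p under 0.05), against 33.8% of all genes tested. Since the 6 genes were chosen with earlier results of these data known, such contrasts describe them and do not test them. Lower at that threshold were 0 of the 6, against 33.6% of all genes. Their log2 fold changes ran from 0.46 for Herc6 to 3.76 for Usp18, with a median of 1.77, while the median of all genes was 0. With a fold change above 1.5 also required, 5 of the 6 were higher, all except Herc6, against 10.6% of all genes. With the trend on GC content and length taken out, Herc6 was at 1.24 on the log2 scale, which is also above that fold change. The libraries of the 2 groups did not overlap for any of the 6 genes, a pattern that 41.2% of all genes showed in the same direction. In order of fold change among the 11448 genes, Usp18 stood at position 67, Isg15 at 87, Ube2l6 at 117, Uba7 at 372, Trim25 at 381 and Herc6 at 1934. In bulk RNA, more transcript per cell and more cells that express a gene cannot be told apart. Nor can loss of USP9X be told apart here from other differences between the groups, such as other effects of the hairpin or of the culture.

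**Figure D1:**
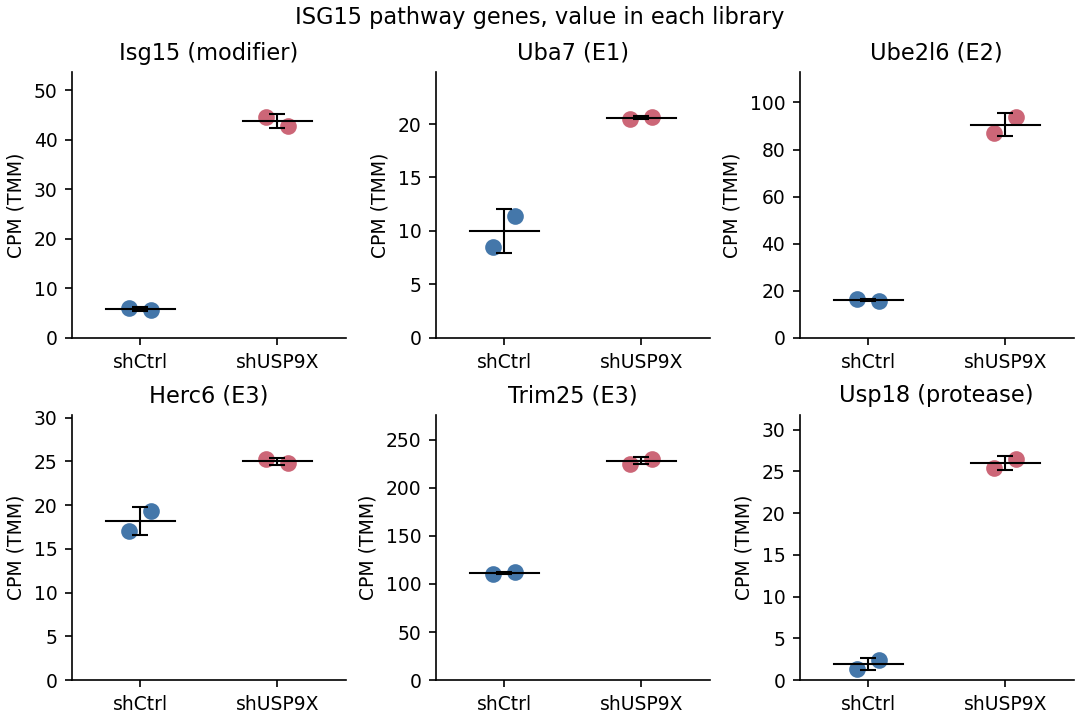
Normalised read counts (CPM, counts scaled to a common library size with TMM factors; y axes from 0) of the 6 ISG15 genes in the shCtrl and shUSP9X libraries. Each point is a library, the bar is the mean and the whisker is 1 SD (n = 2). In each panel both shUSP9X points lie above both shCtrl points. As a fold change the separation is widest for Usp18 and narrowest for Herc6, while in CPM it is widest for Trim25.

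Isg15 (ENSMUSG00000035692; GRCm38 chromosome 4, 156199424 to 156200818, minus strand) had 106 and 89 counts in the shCtrl libraries against 884 and 721 counts in the shUSP9X libraries. Scaled to library size these were 6.11 and 5.63 CPM in shCtrl and 44.7 and 42.8 CPM in shUSP9X. Both shUSP9X libraries were thus several times above both shCtrl libraries, and the libraries of a group were close together. The fitted change was 2.90 on the log2 scale (standard error 0.11, adjusted p = 6.8e-18, edgeR), a 7.44-fold difference. A processed pseudogene, AC151275.1, is 95.2% identical to the Isg15 transcript over 482 of its 756 bases. Reads that fit both could not be divided here, so the counts of Isg15 are uncertain to that extent.

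The promoter of Isg15 was set beside those of the other genes because the 6 genes rose together. RefSeq windows (GRCm38.p6, from 250 bases before to 50 bases after the start of the transcript) were matched for 5 of the 6 genes, and none was matched for Usp18. Each window was searched on both strands for the core of the ISRE, GAAANNGAAA (TTTCNNTTTC on the other strand), and for the core of a related interferon element called GAS, TTCNNNGAA. Of 32851 windows of the same length, 3.44% held the first and 8.30% the second. The Isg15 window held the ISRE core 3 times, in matches that overlap each other and together span bases -78 to -57 from the start. The windows of Uba7, Ube2l6, Herc6 and Trim25 held neither core, and the Isg15 window did not hold the GAS core. The 100 bases before the start are shown for Isg15 (chr4:156200819-156200918, minus strand), Ube2l6 (chr2:84798728-84798827, plus strand) and Herc6 (chr6:57580892-57580991, plus strand). Among the genes without a match, Ube2l6 rose most and Herc6 least in the main fit. Capitals mark the bases covered by ISRE core matches. A match is a stretch of letters and not a measured binding site, and a window without one says nothing about other positions or spellings.
Isg15: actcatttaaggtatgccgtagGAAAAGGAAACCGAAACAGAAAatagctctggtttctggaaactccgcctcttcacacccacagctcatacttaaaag
Ube2l6: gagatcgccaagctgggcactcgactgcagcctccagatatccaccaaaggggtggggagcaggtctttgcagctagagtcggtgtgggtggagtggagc
Herc6: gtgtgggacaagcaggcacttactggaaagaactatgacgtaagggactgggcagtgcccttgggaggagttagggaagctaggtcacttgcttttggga

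Uba7 (ENSMUSG00000032596; chromosome 9, 107975505 to 107984060, plus strand), the E1 that activates ISG15, had 148 and 181 counts in the shCtrl libraries against 405 and 348 counts in the shUSP9X libraries. These correspond to 8.53 and 11.4 CPM in shCtrl and 20.5 and 20.7 CPM in shUSP9X. The shCtrl libraries stood further apart than the shUSP9X libraries (SD 2.06 and 0.117 CPM), yet both remained below the knocked-down libraries. The fitted change was 1.05 on the log2 scale (standard error 0.13, adjusted p = 9.3e-08, edgeR), so the E1 rose 2.07-fold while the modifier rose 7.44-fold. Of the exonic bases of Uba7, 3.48% are shared with Gm20661 on the same strand, which had 0 counts in every library.

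Ube2l6 (ENSMUSG00000027078; chromosome 2, 84798828 to 84810335, plus strand), the E2 that carries ISG15, had 285 and 248 counts in the shCtrl libraries against 1722 and 1584 counts in the shUSP9X libraries. Its CPM were 16.4 and 15.7 in shCtrl and 87.1 and 94.0 in shUSP9X. The E2 rose 5.63-fold, with a log2 fold change of 2.49 (standard error 0.08, adjusted p = 4.3e-20, edgeR). The 95% intervals of the log2 fold changes were 2.34 to 2.64 for Ube2l6 and 0.79 to 1.3 for Uba7 and do not overlap. Its 1560-base transcript shares stretches with transcripts of 10 other genes, the longest with Gm17167 (95.1% identical over 508 bases) and D10Wsu102e (90.6% over 498 bases). D10Wsu102e was the only one of these matched to a row of the table, with 7624 and 6656 counts in the shCtrl libraries against 6082 and 5077 in the shUSP9X libraries, and it moved the other way. Reads that fit Ube2l6 and any of these could not be divided here, so its counts are uncertain to that extent.

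The E3 ligases showed the smallest changes together with the E1. Trim25 (ENSMUSG00000000275; chromosome 11, 88999376 to 89020293, plus strand) encodes a tripartite motif protein that also ubiquitinates the RNA sensor RIG-I. Its counts were 1912 and 1768 in shCtrl and 4455 and 3882 in shUSP9X, or 110 and 112 CPM in shCtrl and 225 and 230 CPM in shUSP9X. The SDs of 1.10 and 3.55 CPM were small beside this difference, and the log2 fold change of 1.04 (standard error 0.04, adjusted p = 5.7e-17, edgeR) lay within the 95% interval of that of Uba7.

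Herc6 (ENSMUSG00000029798; chromosome 6, 57581000 to 57664632, plus strand) encodes a HECT domain ligase, the main E3 of ISG15 in the mouse. It had 296 and 305 counts in the shCtrl libraries against 501 and 417 counts in the shUSP9X libraries. These were 17.1 and 19.3 CPM in shCtrl and 25.3 and 24.8 CPM in shUSP9X, and the groups were separate but close. The log2 fold change of 0.46 (standard error 0.10, adjusted p = 3.3e-04, edgeR; 95% interval 0.26 to 0.67) was the smallest of the 6 and corresponds to a 1.38-fold rise. Across all genes, fold changes in these libraries moved with the GC content of the transcript, and Herc6 has the lowest GC content of the 6 genes (39.4%, against 49.9 to 54.8% for the others). The 559 other genes within 1 percentage point of its GC content had a median log2 fold change of -0.74. Once the trend on GC content and length was taken out of each library, the log2 fold change of Herc6 was 1.24 (adjusted p = 1.4e-10, edgeR; 1.4e-10 to 0.054 over the alternatives), and Herc6 was then above Uba7 (0.81) and Trim25 (1.07). The order of Herc6, Uba7 and Trim25 therefore depends on that correction. Of its exonic bases, 13.7% are shared with Gm45193 on the same strand.

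Usp18 (ENSMUSG00000030107; chromosome 6, 121245906 to 121270917, plus strand), which encodes the ISG15 protease, had 24 and 39 counts in the shCtrl libraries against 502 and 447 counts in the shUSP9X libraries. In CPM these were 1.38 and 2.47 in shCtrl and 25.4 and 26.5 in shUSP9X. Usp18 was the least counted of the 6 genes in shCtrl cells, and the shCtrl values differed from each other by more, relative to their mean, than those of any other of the 6 (SD 0.765 of 1.93 CPM). The fitted change was 3.76 on the log2 scale (standard error 0.18, adjusted p = 2.9e-16, edgeR; 95% interval 3.42 to 4.11), the largest of the 6 and a 13.6-fold rise. It was 3.40 without shCtrl replicate 1 and 4.22 without shCtrl replicate 2, so the size of the rise depended on the few control counts. Of its exonic bases, 4.44% are shared with Gm44148 on the opposite strand, and the counting is not stated to use strand.

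**Figure D2:**
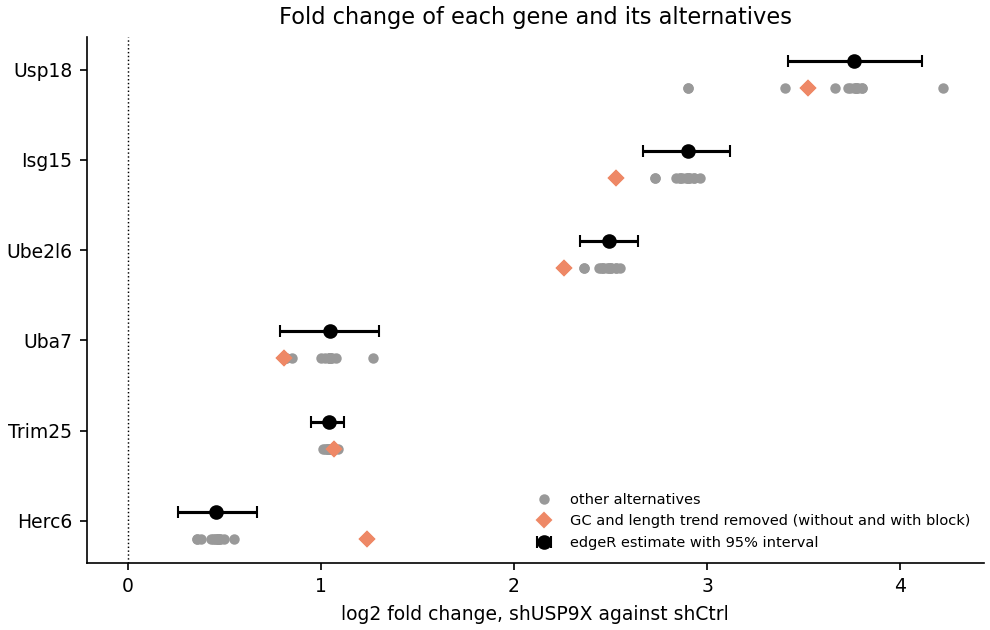
Log2 fold change (x axis, shUSP9X against shCtrl) of each ISG15 gene, from edgeR with its 95% interval (black), with the trend on GC content and length taken out (orange diamonds) and under the other alternatives (grey). All values lie above 0; the 6 genes form a group from 0.46 to 1.05 and a group from 2.49 to 3.76, and removal of the trend moved Herc6 from 0.46 to 1.24.

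Levels of different genes were compared per transcript length, in the FPKM values of the authors (fragments scaled to transcript length and library size). In shCtrl cells the order of mean levels was Trim25 (20.3 ± 0.0453 FPKM, SD, n = 2), Ube2l6 (10.4 ± 0.296), Isg15 (8.43 ± 0.453), Herc6 (3.85 ± 0.350), Uba7 (3.11 ± 0.646) and Usp18 (1.10 ± 0.442). In shUSP9X cells it was Isg15 (61.6 ± 1.90 FPKM), Ube2l6 (57.5 ± 3.11), Trim25 (43.3 ± 2.35), Usp18 (14.5 ± 0.453), Uba7 (6.23 ± 0.0325) and Herc6 (5.20 ± 0.0856). The modifier thus moved from the third place to the first and the protease from the last to the fourth, in both libraries of each group. Most neighbours in these orders were further apart than their spread. The exceptions were close ones, Herc6 above Uba7 in shCtrl by 0.743 FPKM and Isg15 above Ube2l6 in shUSP9X by 4.14 FPKM, where the ranges of the libraries nearly met. FPKM and count fold changes were similar, for example 7.31 and 7.44 for Isg15 and 2.14 and 2.05 for Trim25. The FPKM values are not corrected for the trend on GC content. With the trend on GC content and length taken out of the counts, Herc6 had a larger log2 fold change (1.24) than Uba7 (0.81). The place of Herc6 below Uba7 in shUSP9X may therefore depend on that trend.

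**Figure D3:**
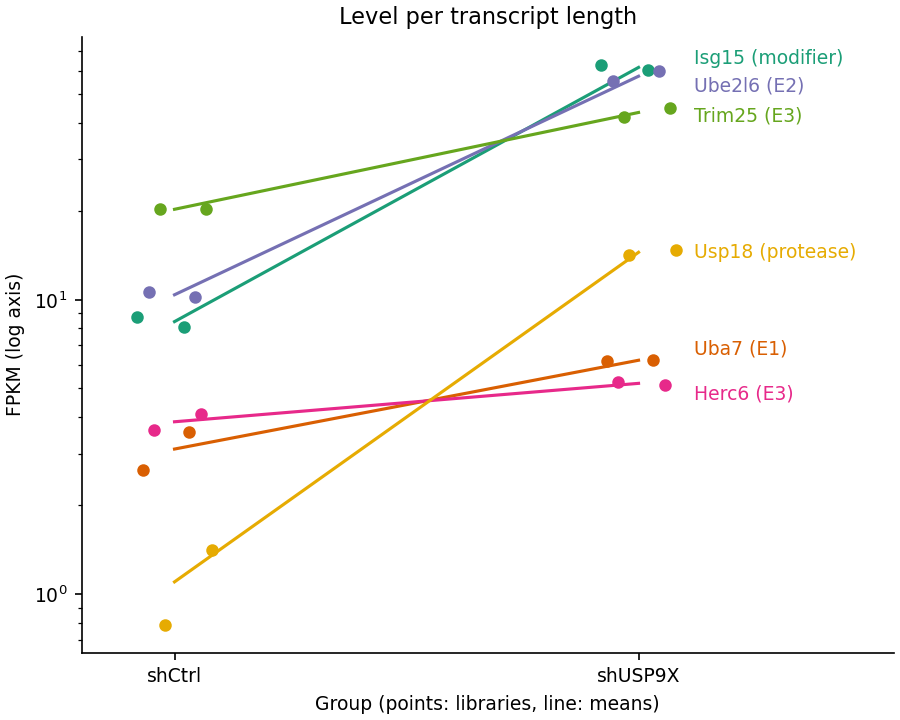
FPKM (log axis) of the 6 ISG15 genes in shCtrl and shUSP9X libraries, with points for libraries and lines between group means. Isg15 and Ube2l6 cross Trim25, and Usp18 crosses Uba7 and Herc6, from shCtrl to shUSP9X. The values are not corrected for the trend on GC content.

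Ratios within each library put the members on one scale. Usp18 was at 0.0898 and 0.174 of the FPKM of Isg15 in shCtrl and at 0.225 and 0.246 in shUSP9X, so that both shUSP9X libraries held more protease transcript per modifier transcript than both shCtrl libraries. Uba7 was at 0.303 and 0.440 of Isg15 in shCtrl and at 0.0986 and 0.104 in shUSP9X, a lower share of E1 per modifier transcript. Ube2l6 stayed near the level of Isg15, at 1.21 and 1.26 in shCtrl and 0.878 and 0.990 in shUSP9X. Its nearest relative, Ube2l3, an E2 of ubiquitin, was far more abundant, and Ube2l6 went from 0.0885 and 0.0899 of its FPKM in shCtrl to 0.345 and 0.364 in shUSP9X. These ratios are descriptions and were not tested.

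The receptor and factors through which interferon acts on these genes were examined next. Of 8 genes of this arm, 4 were higher and 2 lower in edgeR (adjusted p under 0.05), beside shares of 33.8% higher and 33.6% lower among all genes, and the median log2 fold change was 0.33. The ISGF3 genes Stat2 and Irf9 were higher, both with a log2 fold change of 1.87 (standard errors 0.07 and 0.10; edgeR adjusted p = 2.6e-18 and 1.9e-15). Skp2, part of a ubiquitin ligase known to act on USP18, was higher by 0.63. The receptor chain Ifnar1 (-0.23) and the kinase Jak1 (-0.32) were lower. Ifnar2, the chain that USP18 binds, had 0.03 and the kinase Tyk2 -0.07, and neither passed the test.

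Relatives of the ISG15 enzymes were compared with them. Of 8 E2s and ligases, 2 were higher and 5 lower (33.8% and 33.6% among all genes), and their median log2 fold change was -0.36. The higher ones were the E2s Ube2l3 (0.44) and Ube2e1 (0.20), and the lower ones the HERC family ligases Herc1 (-0.64), Herc2 (-0.52), Herc3 (-0.54) and Herc4 (-0.34) and the RBR ligase Arih1 (-0.38). Herc6 was thus the only one of the 5 HERC genes in these lists that was higher. Once the trend on GC content and length was taken out, 4 of the 8 were higher, 0 were lower and the median was 0.10, while 3772 of all 11448 genes were higher and 3490 lower. None of the other HERC genes was then called, with log2 fold changes of -0.30 for Herc3, -0.02 for Herc1, -0.06 for Herc2 and 0.02 for Herc4. Ube2e1 was at 0.68, and Arih1 turned from -0.38 to 0.19 and was then called higher (adjusted p = 3.6e-04, edgeR). Among 6 other proteases that are reported to cleave ISG15, Usp13 had 0 counts in all libraries and Usp2 at most 5. Of the 4 tested, Usp5 (0.58) and Usp14 (0.20) were higher, Usp16 (-1.13) was lower, and Usp21 (0.09) did not pass. Taking out the trend left the calls of these 4 in place but changed their sizes, with 0.99 for Usp14, 0.30 for Usp5 and -0.36 for Usp16.

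Of 13 proteins reported as ISG15 targets, the transcripts of 7 were higher and 3 lower (median log2 fold change 0.19), and 9 were higher and 2 lower with the trend removed. Among all 11448 genes, 33.8% were higher and 33.6% lower as fitted, and 3772 were higher and 3490 lower with the trend removed. The higher ones included Rigi, the gene of the RNA sensor RIG-I (1.15, standard error 0.04, edgeR adjusted p = 3.1e-18), and Trp53 (0.81). Mx1 had the largest value (2.78), but on 4 and 0 counts in the shCtrl libraries against 20 and 12 counts in the shUSP9X libraries. Eif2ak2, which encodes the kinase PKR, had the lowest (-0.56). The kinds of change in this list were mixed, as the plot of the cascades shows.

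Other modifier cascades were set beside that of ISG15, first as fitted and then with the trend on GC content and length taken out. Of the 6 ubiquitin genes and ubiquitin E1s, 4 were higher and 2 lower (median 0.32), and 2 were higher and 2 lower without the trend (median 0.01). Uba1, the main ubiquitin E1, had a log2 fold change of 0.54 that became 0.39, and Uba6, an E1 shared by ubiquitin and FAT10, one of -1.55 that became -0.48. Of 12 SUMO genes 6 were higher and 4 lower (median 0.10), and 6 were higher and 2 lower without the trend (median 0.13), with the lowest value for the protease Senp6 (-1.49, then -1.19). Of 7 NEDD8 genes 3 were higher and 3 lower (median -0.49), and 2 were higher and 2 lower without the trend (median 0.07). The E2 Ube2m had a log2 fold change of 0.84 that became 0.55. The E1 subunit Uba3 went from -0.87 to -0.40, and its partner Nae1, at -0.72, lost its call (0.02). Of 7 UFM1 genes 2 were higher and 4 lower (median -0.30), but 3 were higher and 1 lower without the trend (median 0.09), so the balance turned. The E2 Ufc1 went from 0.65 to 0.50 and the ligase Ufl1 from -0.97 to -0.27. Of 6 genes of other modifiers 5 were tested, with 3 higher and 1 lower (median 0.21), but 1 higher and 2 lower without the trend (median -0.08). Fau turned from 0.28 to -0.09 and was then called lower, and Atg10 went from -1.60 to -1.11. Ubd, the gene of the interferon-inducible modifier FAT10, had 0 counts in all 4 libraries. Among all genes tested 33.8% were called higher and 33.6% lower, so calls in both directions are not particular to these lists. Without the trend, 3772 of all 11448 genes were higher and 3490 lower. For the ISG15 genes 6 of 6 were higher either way, with a median of 1.77 that became 1.75. The steady median hides shifts of single genes. Herc6 went from 0.46 to 1.24 and Trim25 from 1.04 to 1.07. Isg15 fell from 2.90 to 2.53, Ube2l6 from 2.49 to 2.26, Uba7 from 1.05 to 0.81 and Usp18 from 3.76 to 3.52.

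**Figure D4:**
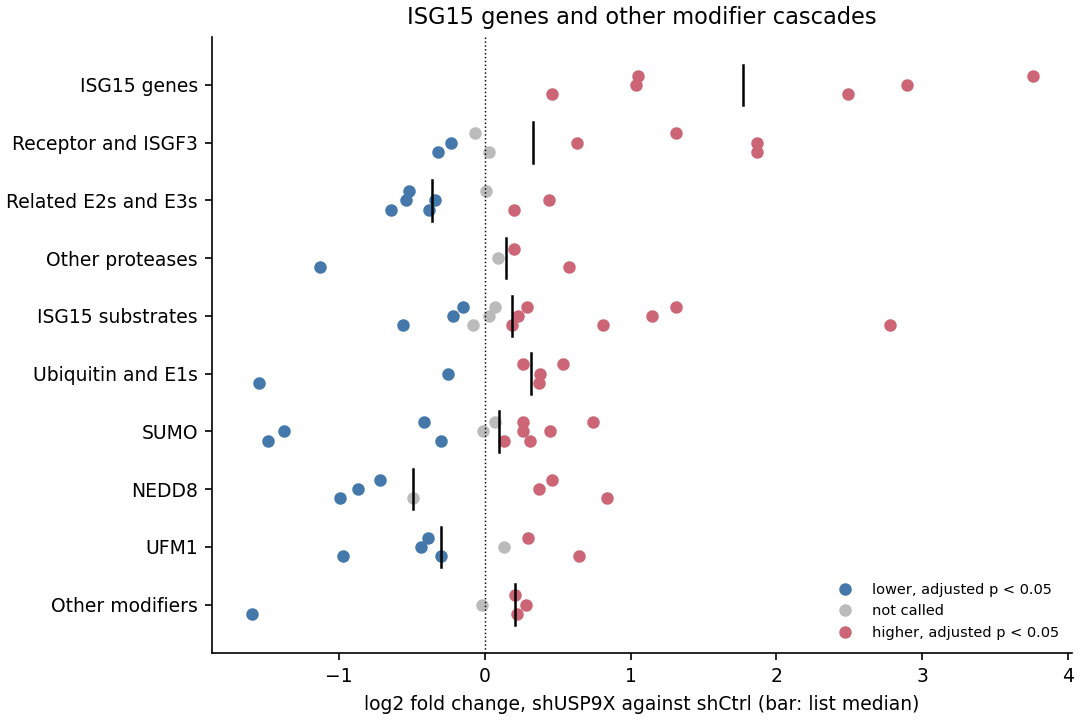
Log2 fold change (x axis, shUSP9X against shCtrl) of each tested gene of the ISG15 genes and of the lists set beside them, coloured by the edgeR call at an adjusted p under 0.05, with the list median as a bar. The ISG15 genes have a median of 1.77 and no gene below 0, while the other modifier cascades hold genes on both sides of 0.

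The genes with the most similar pattern were taken as the 3 genes nearest to each member by Euclidean distance of centred log2 CPM over the 4 libraries. With 2 libraries in each group, this measure follows mainly the difference between the groups. Nearest to Usp18 were Oas3, Cmpk2 and Irf7 (distances 0.322, 0.726 and 0.742), with log2 fold changes of 3.55, 3.11 and 4.06. Nearest to Isg15 were Oas1a, Lgals3bp and Nqo1 (distances 0.254, 0.296 and 0.297), with log2 fold changes of 2.82, 3.11 and 2.61. Nearest to Ube2l6 were Oasl2, Ifi44 and Aldh3a1 (distances 0.0759, 0.125 and 0.134). Nqo1 encodes a quinone reductase and Aldh3a1 an aldehyde dehydrogenase, while the Oas genes encode oligoadenylate synthetases and their relatives. The neighbours of the members with smaller changes were Tmem238, Trmt61a and Arhgef26 for Uba7, Nhp2, Ddx24 and Adsl for Trim25, and Rapgef1, Sgta and Spacdr for Herc6.

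The labelled cell type was checked by its markers. Of 7 epithelial and mesothelial markers, 6 had more than 3 counts in every library, led by Krt19, and their list summed to 2410 and 2430 CPM in shCtrl and 2770 and 2720 CPM in shUSP9X. The markers did not move together. Krt8 (0.92), Krt18 (0.64) and Krt19 (0.12) were higher on the log2 scale, Wt1 (-0.52) and Msln (-0.47) were lower, and Upk3b (0.05) did not pass. Of these 6, 3 were thus higher and 2 lower, beside 33.8% and 33.6% of all genes. With the trend on GC content and length taken out, 2 of these 6 were higher and 4 lower (median -0.21). Among all 11448 genes, 3772 were then higher and 3490 lower. Krt19 turned to -0.22 and Upk3b to -0.20, and both were then called lower. Krt7 was absent, with at most 3 counts in a library. Leukocyte markers moved with the ISG15 genes at a low level. The 16 markers summed to 0.173 and 0.316 CPM in shCtrl and to 11.8 and 12.8 CPM in shUSP9X. More than 3 counts in both shUSP9X libraries were seen for 5 of the 16, and for 0 of them in both shCtrl libraries. The most abundant was Itgam (0 and 0 counts in shCtrl, 72 and 75 in shUSP9X), followed by Adgre1 (0 and 0, 58 and 59), Cd74 (1 and 4, 49 and 45), Ptprc (0 and 0, 29 and 18) and Csf1r (0 and 0, 17 and 13). The other 11 markers had at most 4 counts in any library, with Cd3e, Siglech, H2-Ab1, Cpa3 and Nkg7 among those at 0 in all 4 and Lyz2, an abundant macrophage transcript, at 0 and 2 in shUSP9X. A sum over chosen markers does not give the amount of leukocyte RNA, so it cannot be set against the level of an ISG15 gene. The part of leukocytes or of their RNA in the rise of the ISG15 genes was not tested. Of 4 endothelial markers, only Pecam1 was above 3 counts, with 9 and 19 counts in the shCtrl libraries against 19 and 13 counts in the shUSP9X libraries.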

How the data were processed

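Total RNA of 4 ID8 libraries was enriched for mRNA with oligo(dT) and sequenced on an Illumina instrument. The authors mapped reads to GRCm38. The submitters' processing notes name fastp 0.18.0, Bowtie2 2.2.8, HISAT2, StringTie 1.3.1 and RSEM, without their roles. The authors deposited estimated counts per gene, which are not normalized, and FPKM values, which are scaled for length and depth. Non-whole estimates, 6.395 to 6.69% of a library's values, were rounded.

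The filter filterByExpr left 11448 genes. TMM factors and the edgeR 4.0.16 quasi-likelihood test (R 4.3.3) were applied to these, without a replicate block, and p-values were adjusted by Benjamini-Hochberg. Intervals are the estimate ± 1.96 standard errors. Alternatives used DESeq2 1.42.0, limma 3.58.1 on log2(FPKM + 1) and log2(FPKM + 0.1), other scalings and filters, a replicate block, an offset for GC content and length (loess, span 0.3; GENCODE M21, known for 99.8% of genes tested) and each library left out. A transcript was called a near copy from 100 aligned bases at 90% identity (blastn 2.17.0). Molecular identifiers are not described, so errors cover counting and library spread only.

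The members and lists were chosen with earlier results of these data known. Named genes are the 6 members, Usp9x, genes of lists fixed by hand, and for each member the 3 nearest of the genes with a mean log2 CPM (prior count 2) of at least 2. For Ube2l6 only the 2 longest near copies are named. A minimum of 3 counts in a library was taken as the floor of detection. Some members of these lists are counted but not reported here by name.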

Additional observations from a re-analysis of the deposited data

How the results depend on the processing

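All 6 ISG15 genes and Usp9x kept their direction in all 16 alternatives. The members higher at an adjusted p under 0.05 numbered 6 in 15 of them and 5 in limma on log2(FPKM + 1) without a filter, where Herc6 had a log2 fold change of 0.36 (adjusted p = 0.054, limma) and 14977 genes were tested. Log2 fold changes ranged from 2.53 to 2.96 for Isg15, 0.81 to 1.27 for Uba7, 2.26 to 2.55 for Ube2l6, 0.36 to 1.24 for Herc6, 1.01 to 1.09 for Trim25, 2.90 to 4.22 for Usp18 and -3.91 to -2.76 for Usp9x. The lowest value of Usp18 came from log2(FPKM + 1), a scale that understates the change of low genes. The highest value of Herc6 came with the offset for GC content and length, which also removes real change that runs with either property.

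Genes changed at an adjusted p under 0.05 numbered 7707, and 6326 to 7821 over the alternatives. With the replicate block they numbered 7665 and the 6 members stayed higher. The difference between replicates 1 and 2 in shCtrl correlated with that in shUSP9X at -0.0148 across 9890 genes, which are not independent replicates. The sources do not state whether libraries with the same replicate number were prepared together, and this was not tested. Under another scaling the all-gene median log2 fold change shifted by 0.03 or less. Where a library was left out, the remaining library of its group was assumed to vary like the other group. With 24 and 39 counts in shCtrl, Usp18 had the largest standard error of the 6 members.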
